A study of Homo sapiens with 22 samples.

Results

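Vimentin and 5 keratins are followed here through the reprogramming of human fibroblasts to pluripotency. The genes were taken by symbol: VIM, KRT7, KRT8, KRT18, KRT19 and KRT81, which are 6 of the 33694 genes counted. All 6 passed the filter for testing, a unique molecular identifier (UMI, 1 captured RNA molecule) in at least 5% of the cells kept. BJ fibroblasts, an established line from human foreskin, were grown in microfluidic channels under 5% oxygen and transfected 8 times with unmodified mRNAs for POU5F1, SOX2, KLF4, MYC, LIN28 and NANOG, then moved to another pluripotency medium from day 9. Cells were harvested before the first transfection (D0) and on D3, D5, D7, D9, D11, D13 and D15. On each day there were 2 pools, A and B, each made of the cells of 4 chips, so n = 2 pools per day and 16 in all. D0 is the only untransfected group. All later groups received the same factors, nightly from day 1 to day 8, so D3, D5 and D7 had received only part of the 8 transfections. The line was grown in medium with serum and moved to reprogramming medium from day 1. A comparison of D0 with any later day therefore spans that change as well as transfection. A comparison of D3 to D7 with later days spans the medium change of day 9 and the end of transfection. The day, the medium and the transfection cannot be told apart in it.

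Vimentin is the intermediate filament protein of fibroblasts and other mesenchymal cells. Keratins are the intermediate filaments of epithelia and assemble only as pairs of 1 type II chain (KRT7, KRT8, KRT81) with 1 type I chain (KRT18, KRT19). KRT8 and KRT18 are the first keratins of the embryo and are present in pluripotent stem cells, KRT7 and KRT19 mark simple and glandular epithelia and trophoblast, and KRT81 is a hair keratin. A change from vimentin to keratin filaments accompanies the passage from a mesenchymal to an epithelial state.

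A total of 41975 cells were kept of 44197 barcodes in 22 libraries, 6 pools having been captured as 2 aliquots that were added together. A pool held 571 to 6142 cells and 33181614 to 180056814 UMIs, and the median depth of a library ranged from 23717 to 88662 UMIs per cell. At most 39 cell barcodes were shared by any pair of libraries, up to 2.11% of the smaller one. All 6 genes of a fibroblast list (COL1A1, COL1A2, COL3A1, DCN, LUM, THY1) were above 1 CPM in both pools of D0, with a sum of 3972 and 4117 CPM (UMIs of the gene per 1000000 UMIs of the pool). Of 8 keratinocyte markers, 4 were at 0 in each pool of D0 and 6 below 1 CPM, so that nearly all of the list's 296 and 307 CPM came from KRT10, at 293 and 304 CPM.

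VIM (ENSG00000026025) lies on chromosome 10 of GRCh38 from 17228241 to 17237593, on the plus strand. The window around its start is shown because VIM had the largest fall of the 6 genes from D0 to D15, with the match to the GC box GGGCGG in capitals. It spans chr10:17227991-17228290 of GRCh38.p14, 250 bases before to 50 after the start given by RefSeq.
VIM promoter window: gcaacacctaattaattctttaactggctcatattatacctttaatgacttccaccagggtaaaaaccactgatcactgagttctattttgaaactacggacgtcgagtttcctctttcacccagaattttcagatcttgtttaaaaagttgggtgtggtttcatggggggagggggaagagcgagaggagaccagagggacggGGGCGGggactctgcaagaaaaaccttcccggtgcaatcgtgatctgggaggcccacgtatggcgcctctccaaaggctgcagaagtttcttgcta
Of the 35116 RefSeq promoters of this length, 45.0% hold GGGCGG or its reverse complement. Neither the E-box CACCTG, found in 20.6% of promoters, nor the AP-1 motif TGAGTCA, found in 4.95%, occurs in the VIM window on either strand. The libraries read the 3′ ends of RNAs, so which start was used in these cells was not measured.

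By the mean of the pools, VIM fell from each day to the next. In pool B alone it was higher on D7 than on D5, on D11 than on D9 and on D15 than on D13. In pools A and B, D0 had 10023 and 10737 CPM, D3 had 7857 and 5874, D5 had 7108 and 4641, D7 had 2724 and 4994, D9 had 2231 and 2043, D11 had 1668 and 2116, D13 had 1450 and 485, and D15 had 506 and 572. Every pool from D9 on was below every pool of D3 to D7, while pools A and B of a day lay far apart on D7 and D13, with the higher one B on D7 and A on D13. The log2 fold change was −4.33 from D0 to D15 (standard error 0.43, adjusted p = 1.9e-06, edgeR) and −2.20 for the late days, D9 to D15, against the early transfected days, D3 to D7 (standard error 0.20, adjusted p = 1.1e-06). No step between adjacent days was called for VIM, the log2 changes ranging from −0.20 to −0.95. In sums over a pool, fewer cells of a type and less RNA per cell cannot be told apart.

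KRT8 and KRT18, the pair of simple epithelia, rose at different times. KRT18 (chromosome 12 from 52948871 to 52952906, plus strand) stood at 60.6 and 58.2 CPM on D0, 268 and 201 on D3, 512 and 550 on D5, 1114 and 707 on D7, 1503 and 1754 on D9, 1855 and 1530 on D11, 1637 and 756 on D13, and 797 and 989 on D15. Its first step, D0 to D3, was already called (log2 fold change 1.94, standard error 0.30, adjusted p = 0.00036). KRT8 (chromosome 12 from 52897187 to 52949954, minus strand, overlapping KRT18 by 1084 bases) stood at 26.3 and 26.4 CPM on D0, 41.6 and 34.8 on D3, 311 and 282 on D5, 559 and 409 on D7, 804 and 897 on D9, 880 and 792 on D11, 961 and 326 on D13, and 466 and 555 on D15. For KRT8 the step from D0 to D3 was not called (log2 0.50, standard error 0.32, adjusted p = 0.24) and that from D3 to D5 was (log2 2.91, standard error 0.34, adjusted p = 0.00022). By the mean of the pools both genes were highest on D9 and D11, and they lay above D0 on every later day in both pools. From D0 to D15 they rose by 4.21 and 3.85 on the log2 scale (standard errors 0.37 and 0.32).

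The different timing shows in the ratio of KRT8 to KRT18 UMIs. It was 0.434 and 0.454 in the pools of D0, 0.155 and 0.174 on D3, and between 0.431 and 0.608 in each of the 12 pools from D5 on. Both pools of D3 were thus below all other pools. Over the 16 pools the levels of the 2 genes, as log2(CPM + 1), had a Pearson correlation of 0.96, a description over pools that share their days. GENCODE lists 51 pseudogenes of KRT8 and 68 of KRT18, none of which is among the genes counted. Whether reads that match both a gene and its pseudogenes were counted for the gene or left out was not tested.

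KRT19 had a course of its own. It lies on chromosome 17 from 41523617 to 41528308, on the minus strand, and stood at 479 and 432 CPM on D0, 46.9 and 39.6 on D3, 26.1 and 30.4 on D5, 49.9 and 47.1 on D7, 70.4 and 75.3 on D9, 134 and 122 on D11, 200 and 93.2 on D13, and 139 and 157 on D15. The untransfected fibroblasts therefore held more KRT19 than any later pool. Its fall to D3 was called (log2 fold change −3.44, standard error 0.27, adjusted p = 2.9e-06), and the pools of D9 to D15 all lay above those of D3 to D7 (log2 1.57, standard error 0.14, adjusted p = 6.3e-07). On D15 it was still lower than on D0 (log2 −1.68, standard error 0.25, adjusted p = 6.6e-05).

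KRT7 (chromosome 12 from 52232520 to 52252186, plus strand) overlaps KRT86 on the same strand by 2887 bases at the 3′ end of KRT7. How reads in the overlap were assigned was not tested. KRT7 stood at 7.29 to 42.6 CPM in the 16 pools. It was at 30.7 and 30.2 CPM on D0, 28.9 and 23.7 on D3, 25.2 and 24.6 on D5, 18.3 and 17.9 on D7, 14.2 and 15.4 on D9, 42.6 and 29.8 on D11, 32.7 and 10.7 on D13, and 7.29 and 14.9 on D15. The pools of D13 differed by a log2 ratio of 1.61, the largest difference between pools of a day for this gene. D15 was below D0 (log2 −1.51, standard error 0.41, adjusted p = 0.0056), a call that was lost without pool A of D15 (−1.09, adjusted p = 0.064), without pool A of D0 (−1.46, adjusted p = 0.027), without pool B of D0 (−1.54, adjusted p = 0.019) and without pool B of D7 (−1.49, adjusted p = 0.010). Without pool B of D15 the change was −2.14 (adjusted p = 0.0033), so its size depends on which pool of D15 is used. The late pools overlapped the early ones (log2 −0.31, standard error 0.21, adjusted p = 0.24).

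KRT81 (chromosome 12 from 52285913 to 52291534, minus strand) was scarce throughout. It stood at 0.582 and 0.639 CPM on D0, 0.916 and 0.695 on D3, 2.91 and 2.95 on D5, 3.90 and 3.28 on D7, 2.02 and 2.09 on D9, 14.9 and 5.13 on D11, 5.52 and 6.70 on D13, and 3.25 and 5.20 on D15. Pool A of D11 was the highest and lay far above pool B of that day. The step from D9 to D11 was called (log2 2.29, standard error 0.42, adjusted p = 0.0053) and was 1.25 without pool A of D11 (adjusted p = 0.048). That call was also lost without pool A or B of D9 (log2 2.28 and 2.30, adjusted p = 0.072 and 0.063) and without pool A or B of D0 (log2 2.27 and 2.29, adjusted p = 0.012 and 0.010), and when only the pools of D9 and D11 were fitted (log2 2.26, adjusted p = 0.013). From D0 to D15 KRT81 rose by 2.74 on the log2 scale (standard error 0.44, adjusted p = 0.00015, edgeR). KRT81 had a UMI in 6.90% of all cells, while the pools of D0 had 97 and 94 UMIs in 6142 and 4634 cells. It thus passed the filter for testing through later days, and its rise from D0 depends in part on this. KRT86, a close copy of KRT81 on the opposite strand of the same locus, had 0.197 to 1.28 CPM and a UMI in 2.05% of cells, KRT83 and KRT85 had at most 0.0309 and 0.0350 CPM, and reads that fit several of these copies cannot be assigned to 1 of them.

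**Figure D1:**
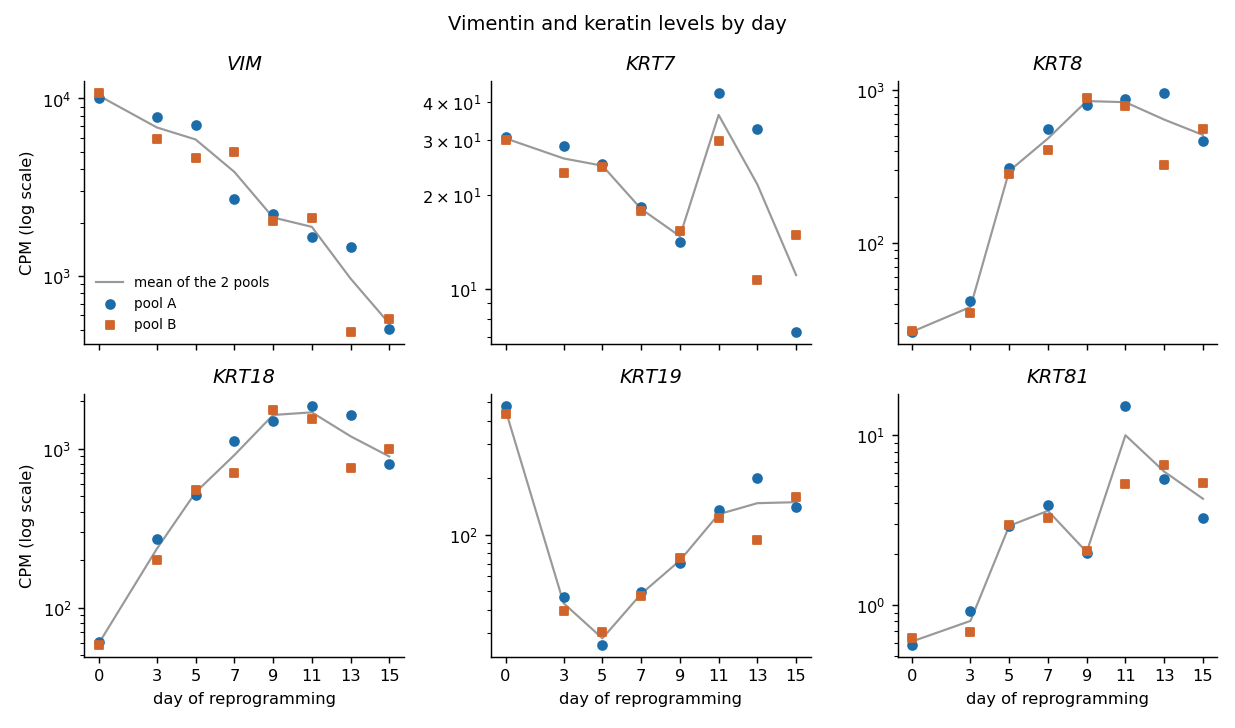
CPM of each gene (log scale) against the day, with pool A as circles, pool B as squares and the mean of the 2 pools as a line. VIM falls from over 10000 CPM on D0 to 506 and 572 CPM on D15, and KRT8 and KRT18 are highest by the mean on D9 and D11. KRT19 is lowest on D5 and higher again from D7, and the pools of D13 lie apart for every gene but KRT81.

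Across the whole table, a gene was called at an adjusted p below 0.01 with a log2 fold change beyond 0.25. From D0 to D3, 2 of the 6 genes were called (KRT18 up, KRT19 down), where 25.6% of all genes were. When only the 4 pools of these days were fitted, both just missed the threshold (log2 2.01 and −3.36, adjusted p = 0.011 and 0.010). From D3 to D5, 1 was called (KRT8), where 3.56% of all genes were, and KRT18 (log2 1.14, adjusted p = 0.035) and KRT81 (log2 1.82, adjusted p = 0.025) were short of it. From D9 to D11, 1 was called (KRT81) against 4.09% of genes. edgeR called none of the 6 from D5 to D7 (2.06% of genes), D7 to D9 (7.37%), D11 to D13 (0.117%) or D13 to D15 (0.086%), with 3, 4, 1 and 1 of them at an unadjusted p below 0.05 and none called by DESeq2. All 6 were called from D0 to D15, where 53.4% of genes were, and 5 of 6 between the early and late days, where 43.5% were. KRT81 is in both counts and passed the filter for testing through days later than D0, so the counts depend in part on this.

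How many cells carried each RNA was counted after each cell had been thinned to 5000 UMIs, since depth differed between days, and no cell was too shallow for it. VIM was found in nearly every cell up to D7 (99.9% ± 0.044 on D7, SD, n = 2 pools), then in 95.2% ± 0.66 of D9 cells, 86.8% ± 9.8 of D11, 64.7% ± 2.2 of D13 and 48.5% ± 9.1 of D15 cells. Among all cells the median VIM count fell from 51 and 54 UMIs on D0 to 13 and 23 on D7, 8 and 8 on D9, 2 and 1 on D13, and 0 and 1 on D15.

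The share with KRT18 was 20.99% ± 1.2 for D0, 48.5% ± 0.081 for D3, 77.0% ± 23 for D7, 88.0% ± 4.7 for D9, 90.7% ± 9.8 for D11, 91.0% ± 0.46 for D13 and 90.9% ± 1.8 for D15. KRT8 was in 12.4% ± 0.22 on D0, 14.4% ± 0.14 on D3, 37.9% ± 3.3 on D5, 80.5% ± 7.1 on D9 and 75.4% ± 5.5 on D15. In D7 the pools disagreed, with KRT8 in 83.4% of cells of pool A and 53.5% of pool B. KRT19 went from 56.9% ± 1.7 on D0 to 7.99% ± 0.50 on D5 and back to 39.1% ± 2.5 on D15, KRT7 from 12.96% ± 0.44 on D0 to 3.65% ± 0.95 on D15, and KRT81 was in 0.111% ± 0.0043 of cells on D0 and in at most 3.62% ± 2.3, on D11. The fibroblasts of D0 gave the lowest share of KRT8, KRT18 and KRT81 and are the nearest to a cell type that lacks them, with a median depth of 23726 and 28387 UMIs in their mesenchymal-marker-rich cells before thinning. How much of any share came from free RNA was not tested.

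To see how vimentin and keratin counts went together in the same cells, each cell was placed by 2 limits taken from D0. A cell was high in keratin with more than 10 UMIs of KRT8, KRT18 and KRT19 together, the 95th percentile of D0, and low in vimentin with fewer than 29.5 VIM UMIs, the 5th percentile. The 4 combinations are ranges of counts and not cell types. A cell low in vimentin could still hold VIM, so the ranges do not count cells with both RNAs. The median VIM count of cells high in keratin was 23 and 16 UMIs on D5, 11 and 16 on D7, and 8 and 7 on D9. Cells high in keratin that retained vimentin made up 4.92% and 3.97% of the pools of D0, 1.17% and 0.27% on D3, 3.45% and 0.86% on D5, 0.17% and 1.199% on D7, 2.12% and 1.51% on D9, 0.48% and 1.22% on D11, 1.89% and 0% on D13, and 0.53% and 1.04% on D15. The shares of D0 follow from the limits, which were set on D0. The keratin sum of D0 was mostly KRT19, which then fell, so the same range holds other keratins on later days. For the 0% of pool B on D13, 0 of 4069 cells allows a share of up to 0.0737%, from counting error alone.

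Cells high in keratin and low in vimentin went from 0.15% and 0.086% on D0 and 0.58% and 0.17% on D3 to 7.41% and 9.57% on D5, 26.4% and 14.1% on D7, 35.6% and 46.5% on D9, and 51.6% and 37.0% on D11, then stood at 30.9% and 10.3% on D13 and 11.2% and 15.5% on D15. Were the 2 limits passed independently, these shares would be 4.12% and 6.53% on D5, 24.3% and 9.62% on D7, and 33.4% and 44.5% on D9. They would be 49.2% and 32.4% on D11, 30.6% and 10.3% on D13, and 11.6% and 16.3% on D15. Most of each share from D7 on is thus given by the separate shares of cells past each limit. Cells low in vimentin without high keratin were at 31.8% and 47.1% on D3, 30.5% and 53.0% on D5, and 64.9% and 48.7% on D7. On D9 they were at 53.0% and 46.0%, and on D11 at 42.8% and 47.6%. They were the largest range in both pools of D7, D13 and D15 (62.2% to 89.5% on D13 and D15). This range was also the largest in pool B of D5, pool A of D9 and pool B of D11. Up to 14.7% of the cells of a pool lay within 1 UMI of the keratin limit, and up to 4.85% within 1 UMI of the vimentin limit.

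**Figure D2:**
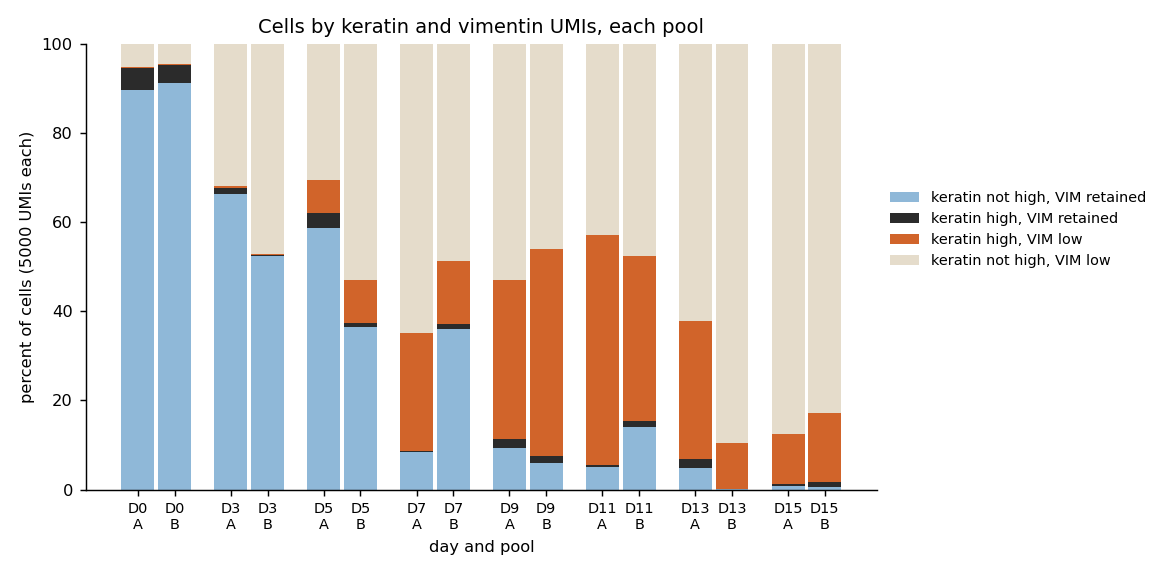
Share of cells (percent, each cell thinned to 5000 UMIs) in 4 ranges of keratin and vimentin UMIs, as 1 stacked bar for each pool A and B of each day. Low in vimentin means fewer than 29.5 VIM UMIs, not their absence. Cells high in keratin with vimentin retained (black) never pass 4.92% of a pool, while cells high in keratin and low in vimentin (orange) reach 51.6% in pool A of D11.

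How VIM went together with KRT8 and KRT18 over cells changed with the day. Over the cells of 1 pool the Spearman correlation of VIM and KRT18 was within 0.05 of 0 in the 4 pools of D0 and D3, then −0.27 and −0.26 on D5, −0.23 and −0.41 on D7, −0.24 and −0.24 on D9, −0.47 and −0.54 on D11, −0.03 and 0.10 on D13, and 0.23 and 0.19 on D15. The correlation of VIM with KRT8 was negative in all 8 pools of D5 to D11 (−0.35 to −0.13) and positive in all 4 of D13 and D15 (0.07 to 0.27). With KRT19 the correlation was 0.22 and 0.15 on D3, −0.13 and −0.17 on D11, and 0.12 and 0.08 on D15. With KRT7 it was above 0 in 14 of 16 pools (−0.04 to 0.21), with 0.18 and 0.17 on D11, and with KRT81 it was above 0 in all 8 pools of D9 to D15 (0.06 to 0.13). Likewise, cells high in keratin had a lower median VIM count than the others on D11 (3 against 13 UMIs in both pools) and a higher one on D13 (5 against 1 in both pools) and D15 (8 and 4 against 0). KRT8 and KRT18 correlated positively in all 16 pools, from 0.13 on D0 to 0.72 on D9. Cells of a pool share library, depth and composition, so these values are descriptions.

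**Figure D3:**
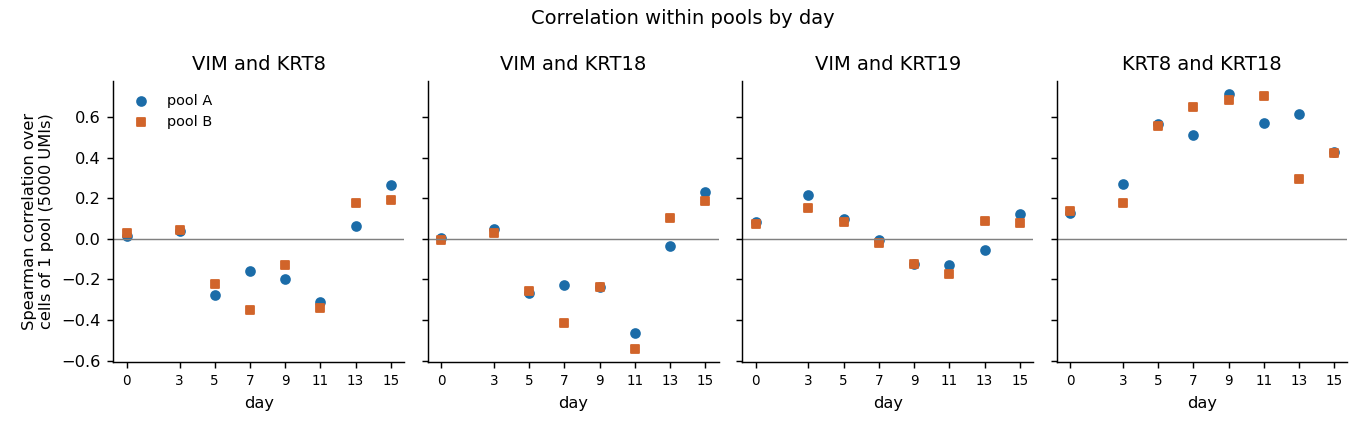
Spearman correlation over the cells of each pool, each cell thinned to 5000 UMIs, against the day, for 4 pairs of genes (circles pool A, squares pool B, line at 0). VIM with KRT8 or KRT18 is near 0 on D0 and D3, negative from D5 to D11 and mostly above 0 on D13 and D15, and KRT8 with KRT18 is above 0 in all 16 pools.

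From D9 on, cells were split in each pool by markers that include none of the 6 genes. The epithelial list held 13 genes of epithelia and pluripotency, such as EPCAM, CDH1 and L1TD1. The mesenchymal list held 14 genes, collagens and others such as DCN and FN1. A cell was rich in the markers of a list with at least 3 of its UMIs and at least 2 times as many as of the other. Because the epithelial list includes pluripotency genes, the classes also differ in pluripotency and not in epithelial state alone. Epithelial-marker-rich cells were 30.9% and 35.6% of cells on D9, 24.1% and 43.8% on D11, 58.0% and 64.1% on D13, and 85.5% and 80.3% on D15. Cells with at least 3 UMIs of each list that met neither rule were left out of both classes. They were 20.3% and 23.5% of cells on D9, 27.3% and 11.9% on D11, 6.32% and 12.8% on D13, and 2.45% and 6.02% on D15. All 8 pools had at least 50 cells of each class (the fewest, 69, were the mesenchymal-marker-rich cells of pool A of D15).

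VIM, KRT7 and KRT81 were lower in epithelial-marker-rich cells in 8 of 8 pools. VIM was at 768 and 824 CPM there against 3938 and 3713 in mesenchymal-marker-rich cells on D9, and at 117 and 166 against 3733 and 3567 on D15. The fitted difference with the pool as a block was −3.49 for VIM (standard error 0.31, adjusted p = 4.0e-06), −2.66 for KRT7 (0.27, adjusted p = 9.7e-06) and −4.56 for KRT81 (0.51, adjusted p = 1.6e-05) on the log2 scale. These 3 of 6 calls stand beside 68.9% of all genes called between the classes, 34.3% of all genes being lower in epithelial-marker-rich cells. Mesenchymal-marker-rich cells held 1743 to 5161 CPM of VIM in the late pools, less than either pool of D0. COL1A1, a gene of the mesenchymal list, was at 38.1 to 266 CPM in epithelial-marker-rich and 1202 to 4723 CPM in mesenchymal-marker-rich cells, and how much of either RNA in the former is free RNA was not tested.

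KRT8, KRT18 and KRT19 did not differ between the classes over all 8 pools by this test (log2 −0.55, −0.06 and −0.45, adjusted p = 0.18, 0.89 and 0.17), and each was higher in epithelial-marker-rich cells in 4 pools and lower in the other 4. The 4 pools of D9 and D11 were those in which they were higher, and the 4 of D13 and D15 those in which they were lower, KRT19 in pool A of D11 being nearly equal (112 against 111 CPM). KRT8 was at 905 and 942 CPM in epithelial-marker-rich cells of D9 against 647 and 816 in mesenchymal-marker-rich ones, and on D15 at 300.5 and 363 against 1613 and 1404. KRT18 went from 1920 and 2118 against 1060 and 1309 on D9 to 596 and 746 against 2240 and 2104 on D15. KRT19 went from 80.4 and 81.3 against 56.3 and 58.6 on D9 to 94.7 and 107 against 375 and 298 on D15. In epithelial-marker-rich cells KRT8 and KRT18 were thus far lower on D15 than on D9, while KRT19 stayed between 64.9 and 134 CPM in the 8 pools.

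A test of the change in the class difference was added after these ratios had been seen. From D9 and D11 to D13 and D15 it changed by −2.002 for KRT8 (standard error 0.27), −2.03 for KRT18 (0.29) and −1.63 for KRT19 (0.21) on the log2 scale, with adjusted p = 0.011 for each (edgeR), just short of the threshold of 0.01. None of the 6 genes was called, where 0.0548% of all genes were, while 4 had an unadjusted p below 0.05 and DESeq2 called 3. Within D13 and D15, all 6 genes were called lower in epithelial-marker-rich cells (65.3% of all genes were called, and 31.2% of all genes lower), KRT8 by −1.56, KRT18 by −1.09 and KRT19 by −1.27. Within D9 and D11, 4 were called (61.9% of genes, 29.7% higher and 32.1% lower), KRT18 being higher by 0.95 (adjusted p = 0.0021), with KRT8 at 0.44 and KRT19 at 0.36 (adjusted p = 0.057 and 0.052).

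**Figure D4:**
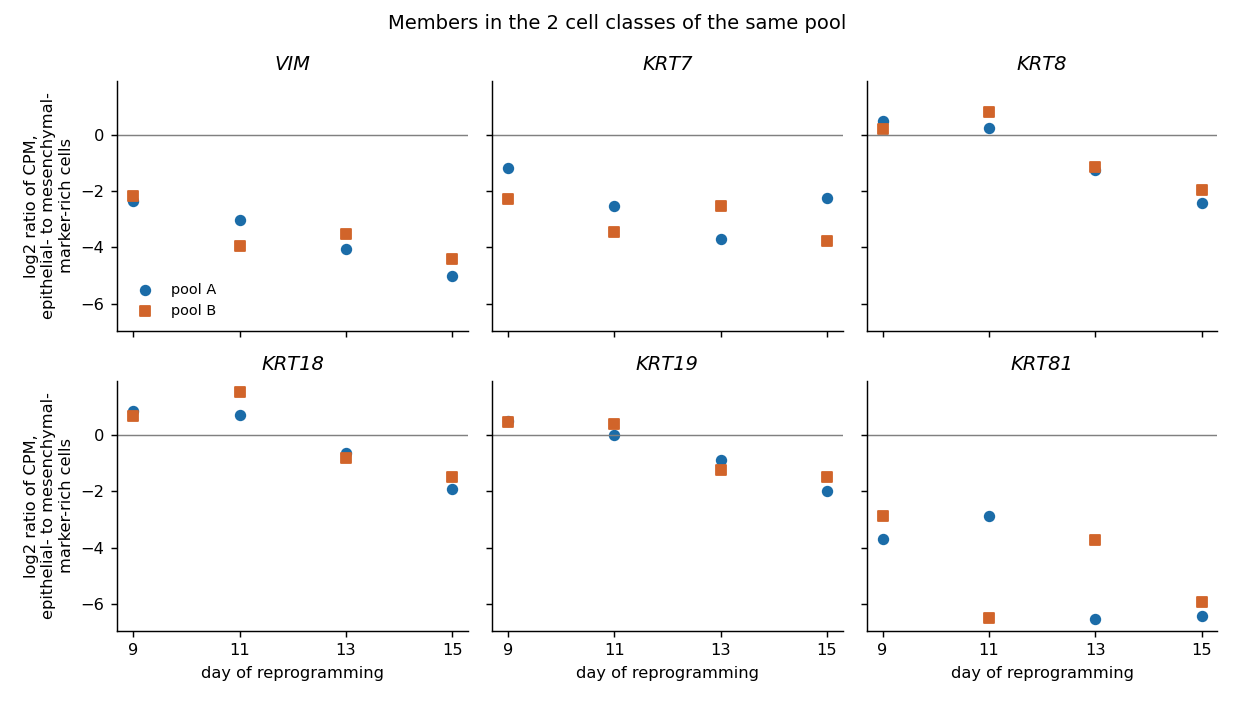
Log2 ratio of CPM in epithelial-marker-rich to mesenchymal-marker-rich cells of the same pool, against the day, for each gene (circles pool A, squares pool B, line at equal levels). VIM, KRT7 and KRT81 lie below 0 in all 8 pools, and KRT8, KRT18 and KRT19 lie above 0 in the 4 pools of D9 and D11 and below it in the 4 pools of D13 and D15.

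Markers of other lineages were read in the same cells. In mesenchymal-marker-rich cells, 8 mesendoderm genes (CER1, EOMES, GSC, MIXL1, T, LHX1, FOXA2, SOX17) summed to 2.13 and 3.39 CPM on D9 and 65.2 to 149 on D11, and to 129 to 277 CPM on D13 and D15, where 7.99% to 23.2% of these cells had at least 2 UMIs of the list. The 10 trophoblast and amnion genes (GATA3, GATA2, TFAP2A, CGA, HAND1, VGLL1, KRT23, GABRP, CDX2, ISL1) summed to 42.8 to 75.7 CPM in them on D9 and D11 and 52.9 to 145 on D13 and D15. Of these, HAND1 had 1.67 to 7.16 CPM on D9 and D11 and 19.96 to 91.4 CPM on D13 and D15. The other 9 genes summed to 64.6 and 74.0 CPM on D9, 35.7 and 46.5 on D11, and 30.5 to 54.1 on D13 and D15, so that they were not higher there than on D9. Of the 10 genes, 4 or 5 were below 1 CPM in every pool as a whole from D9 on, and 1 or 0 were at 0. In the pools of D0 as a whole the 10 genes summed to 86.7 and 94.4 CPM, against 12.7 to 50.2 from D9 on. UMIs of this list are thus not specific to trophoblast or amnion in these cells. Without every cell that had a UMI of either list, which left 7 pools because pool A of D15 kept too few, the change in the class difference was −1.28 for KRT8, −1.36 for KRT18 and −0.82 for KRT19 (adjusted p = 0.085, 0.095 and 0.15), against −1.82, −1.86 and −1.50 without pool A of D15 alone, and the ratio of KRT18 in pool A of D13 turned to 0.07 and that of KRT19 to 0.20.

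Cells with at least 2 mesendoderm UMIs were compared with cells of the same pool that had none, in the 6 pools of D11 to D15 with 30 such cells or more. KRT8, KRT18 and KRT19 were higher in them in 6 of 6 pools, by a median log2 ratio of 1.80, 1.14 and 2.46. KRT19 was at 354 and 420 CPM against 108 and 94.4 on D11, 1012 and 283 against 141 and 73.1 on D13, and 717 and 773 against 97.9 and 114 on D15. KRT7 was lower in all 6 (median −2.25) and KRT81 in 5 of 6. VIM was lower in both pools of D11 (log2 ratio −0.42 and −0.83) and higher in all 4 pools of D13 and D15 (1.02 to 2.16), where the cells with mesendoderm UMIs had 904 to 3187 CPM of VIM. These ratios were not taken within a class. On D13 and D15, 7.99% to 23.2% of mesenchymal-marker-rich cells had at least 2 mesendoderm UMIs, against 1.63% to 2.99% of epithelial-marker-rich ones. How much of the ratios comes from the mix of classes was not tested. The trophoblast list had its highest sums in the fibroblasts of D0. With this list, in the 6 pools of D9 to D13, KRT8, KRT19 and VIM were higher in 6 of 6 pools and KRT18 in 5, whereas KRT7 was higher in 3. The largest ratios were those of D13, where KRT8 was at 5254 and 1294 CPM against 726 and 297. The pools that were left out had 15 to 21 such cells.

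**Figure D5:**
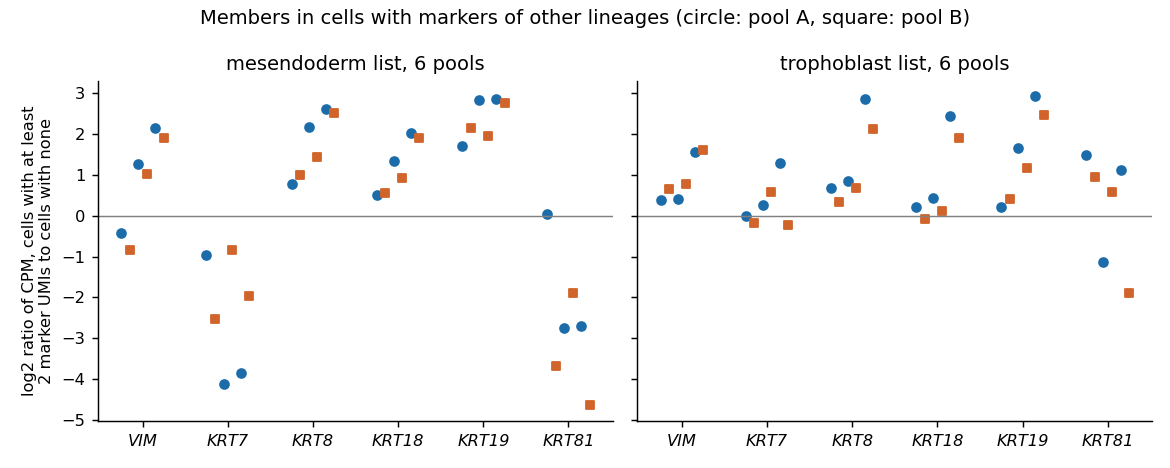
Log2 ratio of CPM in cells with at least 2 UMIs of the mesendoderm (left) or trophoblast list (right) to cells of the same pool with none, for each gene, with 1 point per pool in order of day (circles pool A, squares pool B, line at equal levels). KRT8 and KRT19 lie above 0 in all 6 pools on both sides, and KRT7 lies below 0 in all 6 on the left.

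Other genes of the filament system were read from a list of 83 (51 other keratins, 13 other intermediate filament genes, 7 plakins and linkers that anchor filaments, 9 desmosome genes, 3 keratin partners), of which 28 were detected in enough cells to test. Of these, 18 rose and 6 fell between the early and late days, where 21% and 22.5% of all genes did, with a median log2 difference of 1.02 against −0.02 over all genes. The filter counted cells of all days, and genes scarce on D0, such as DSC2, DSG2, PKP2, EPPK1, NEFL and NEFM, passed it through later days. The count of rises and the median depend in part on this and are descriptions. Of the 51 other keratins only KRT10 and KRT17 could be tested. KRT10 fell (log2 −0.81), and KRT17, a keratin of basal and stressed epithelia, had 19.2 CPM on D0, 116 on D11 and 31.6 on D15 (means of 2 pools) with no step called between adjacent days.

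Of the 9 desmosome genes 6 could be tested, and 5 of these rose between the early and late days, where 21% of all genes did. DSC2, DSG2 and PKP2 are among the 5 and passed the filter through later days, so this count is a description. For JUP and PKP3 (log2 0.79 and 2.02) no rise was called between adjacent days, and JUP fell from D0 to D3 (−1.04, adjusted p = 0.0028). PKP2, a plakophilin of the desmosome plaque, rose at each step from D3 to D9, from 0.0371 CPM on D3 to 0.227 on D5, 1.53 on D7 and 8.33 on D9. DSG2 and DSC2, the cadherins of simple-epithelial desmosomes, rose from D7 to D9, from 0.899 to 8.09 and from 0.0428 to 0.656 CPM, and DSC2 rose again to 4.03 CPM on D11. EPPK1, epiplakin, which binds keratin filaments, rose from D3 to D5 and D5 to D7, from 0.0186 to 0.519 and 2.71 CPM. SFN, a 14-3-3 protein that binds keratins, rose from D0 to D3 (log2 1.57), and its step to D5 was not called (−0.32, adjusted p = 0.70). Between the classes, DSG2, PKP3 and PKP4 were higher in epithelial-marker-rich cells (log2 1.98, 2.11 and 0.27), JUP, plakoglobin, was lower (−0.28), and DSC2 and PKP2 were not called (1.51 and 0.98, adjusted p = 0.013 and 0.015).

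Other filament genes also changed. LMNA, the A-type lamin, fell by 2.05 and the B-type lamins LMNB1 and LMNB2 rose by 1.49 and 0.45 on the log2 scale between the early and late days, and the same directions were called between the classes (−2.49 for LMNA, 1.30 and 0.97 for LMNB1 and LMNB2). The neurofilament genes NEFL and NEFM rose by 2.60 and 2.08, to 10.1 and 20.2 CPM on D15. They had 0.280 and 0.557 CPM on D0 and a UMI in 7.88% and 8.32% of all cells. Both passed the filter through later days, so these rises depend in part on it. INA, α-internexin, fell from D0 to D3 and from D3 to D5 (log2 −1.22 and −1.14) and rose from D7 to D9 (1.82). BFSP1, a lens filament gene, fell (log2 −0.90). PLEC, plectin, which links vimentin and keratins to other structures, fell by 1.03 and was lower in epithelial-marker-rich cells (−1.23).

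The genes with the most similar course over the 16 pools were found by Pearson correlation of log2(CPM + 1), among genes with at least 10 CPM in 2 pools. For VIM they were LGALS3, SQRDL and TWIST2 (r = 0.99), for KRT8 GPC4, CALB1 and DLL3 (0.98), for KRT18 MARCKSL1, TXNDC12 and SCX (0.98 to 0.99) and for KRT19 APOBEC3G, NPC2 and NMI (0.94 to 0.95). KRT7 was most like P4HA2, KDELR3 and PLAUR (0.88 to 0.92), and KRT81 most like INHBA, COL4A2 and UBE3B (0.90 to 0.91), a looser likeness. Between members, VIM correlated at −0.67 with both KRT8 and KRT18 and at −0.11 with KRT19 over the same pools.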

How the data were processed

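Single-cell 3′ RNA-seq libraries of 8 days were analysed. The deposited values are raw UMI counts per gene and cell barcode, which the authors made with Cell Ranger 2.2 on hg38 with a GRCh38 annotation of protein coding, lincRNA and antisense genes. The aliquots are separate in them, and the cell filters of the study had not been applied. A cell was kept if it had 1000 genes or more and no more than 10% of its UMIs were mitochondrial, and aliquots of a pool were added together. Genes with a UMI in at least 5% of cells (12794) were tested on sums per pool with edgeR 4.0.16 in R 4.3.3 (quasi-likelihood, TMM, 16 pools in 1 fit, Benjamini-Hochberg over all genes), DESeq2 being an alternative. Classes were compared in the same way with the pool as a block (12767 genes, marker genes left out). CPM uses all UMIs of a pool, without TMM. Chips were separate, but all cells come from 1 line, so the p-values measure the spread between pools of it.

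In simulated counts for D5 against D3 over 12794 genes, 12 of 50 genes changed 2-fold and 50 of 50 changed 4-fold were called, with 2 false calls. The members and the lists were chosen with earlier results of these data known. For that reason the shares and ranges of cells and the cells with markers are given as descriptions, without the permutation tests that had been planned. Genes named beyond the 6 are those of the filament list called in at least 3 of the 9 day comparisons, antisense genes, close copies of KRT81 and the 3 most similar genes per member, and KRT10, KRT17, LMNA, PLEC, JUP, PKP3 and PKP4 were named after their values were seen. Doublets were not called; removing the 5% of cells with the most UMIs in each library was tried instead. Alternatives are given under the closing section. Pools of the same letter were not treated as paired across days. Over 28 pairs of days the A minus B differences correlated at −0.45 to 0.82, with a median of 0.00. Some pairs of days thus shared a direction and others did not. Promoters come from RefSeq (GRCh38.p14, 2 of the 6 genes matched) and coordinates from GENCODE v44 by Ensembl identifier. The interaction of class and period, the mesenchymal list without FN1 and SPARC and the removal of cells with mesendoderm or trophoblast UMIs were added after the data were seen. Intervals and limits cover counting error only.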

Additional observations from a re-analysis of the deposited data

Results flagged for a closer look

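The difference between epithelial-marker-rich and mesenchymal-marker-rich cells pointed one way in all 4 pools of D9 and D11 and the other way in all 4 pools of D13 and D15 for KRT8, KRT18 and KRT19, with KRT19 in pool A of D11 nearly equal (112 against 111 CPM). The change was −2.002 for KRT8, −2.03 for KRT18 and −1.63 for KRT19 on the log2 scale, with an adjusted p of 0.011 for each by edgeR's quasi-likelihood test, which misses 0.01. Leaving out 1 pool at a time gave −2.21 to −1.82, −2.21 to −1.84 and −1.81 to −1.50. In mesenchymal-marker-rich cells mesendoderm genes summed to 2.13 and 3.39 CPM on D9, 149 and 65.2 on D11, and 129 to 277 on D13 and D15. In epithelial-marker-rich cells they summed to 21.3 and 23.0 CPM on D9, 118 and 126 on D11, and 29.5 to 58.8 on D13 and D15. Without all cells with a UMI of the mesendoderm or trophoblast list the size was −1.28, −1.36 and −0.82. Pool A of D15 had too few cells left for this, and without that pool alone the size was −1.82, −1.86 and −1.50. The same filter took the mesenchymal-marker-rich cells of D0 from 6136 and 4628 to 3994 and 2936. It is thus not specific to mesendoderm or trophoblast cells, and their part in the change was not tested.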

How the results depend on the processing

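Each pool was left out in turn, a lone pool of a day being assumed to vary like the other days. The number of the 6 genes called stayed at 2 from D0 to D3, at 5 between D3 to D7 and D9 to D15, at 3 between the classes and at 0 from D5 to D7, D11 to D13 and D13 to D15. It ranged from 1 to 2 from D3 to D5, 0 to 1 from D7 to D9, 0 to 2 from D9 to D11, 5 to 6 from D0 to D15, and 0 to 1 for the change in the class difference. The higher counts came without pool A or B of D13 for the steps D3 to D5, D7 to D9 and D9 to D11, without pool A or B of D11 for D3 to D5 as well, and without pool B of D13 for the class difference. The count of 0 from D9 to D11 came without either pool of D0 or D9 or pool A of D11, and the 5 from D0 to D15 without either pool of D0, pool B of D7 or pool A of D15, where KRT7 was lost. From D3 to D5, 3 genes were called with DESeq2, 2 with no filter on genes and 3 when the limit was an adjusted p of 0.05 whatever the fold. With only the pools of the days compared, 0 were called from D0 to D3 (KRT18 at an adjusted p of 0.011 and KRT19 at 0.010) and 2 from D9 to D11, the smaller fits having fewer pools. Those 2 were KRT7 (log2 1.26, 0.0066) and KRT19 (0.77, 0.0095), and KRT81, the gene called in the fit of all pools, was not called (2.26, 0.013). For the change in the class difference, 3 genes were called with DESeq2, with no filter on genes and without the 5% of cells with the most UMIs. Over 8 other settings, 1 of them the mesenchymal list without FN1 and SPARC, it was −2.06 to −1.28 for KRT8. For KRT18 it was −2.10 to −1.36 and for KRT19 −1.74 to −0.82. Between the classes, 3 genes were called in each of 9 other settings, that list among them. The pool letter as a replicate block gave 2, 1, 0, 0, 1, 0, 0, 6 and 5 calls in the 9 day comparisons, and the classes without a replicate block 3, so the block changed no count of calls.

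The difference in shares of cells between D9 to D15 and D3 to D7 depended on depth, and in no case did it change sign. For VIM it was −26.1 percentage points at 5000 UMIs, −39.3 at 2000, −16.0 at 10000 and −2.02 without thinning; for KRT19 19.5, 10.7, 28.4 and 36.2. KRT7 had −2.06, with −0.60 at 2000 UMIs, −5.21 at 10000 and −13.3 without thinning, and without thinning KRT8 had 20.1 (37.9 at 5000) and KRT18 9.38 (31.2 at 5000). At 10000 UMIs 279 cells were too shallow. Cells high in keratin and low in vimentin differed by 20.1 points, by 31.8 with the 90th and 10th percentiles and 10.4 with the 99th and 1st, and by 17.0 to 23.5 with a pool left out. Cells high in keratin with vimentin retained differed by −0.09, −1.24 and 1.06 points, and by −0.29 to 0.36 with a pool left out, so that no direction is read from them. Single fold changes were followed only for genes called in the main day and class fits and for the class-difference changes of KRT8, KRT18 and KRT19. Of these, 159 of 171 kept their side of the threshold and their direction under the other settings, and none changed direction. Changes near 0 were not among them, so their direction was not tested in this way. With 2 pools a day, changes of 2-fold are often missed.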

Other observations

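VIM-AS1, the antisense gene that shares 1778 bases with VIM, was at 17.7 CPM on D0 and 17.0 on D7, and at 4.07 on D9 and 1.56 on D15 (means of 2 pools). The pools of D7 had 12.01 and 21.9 CPM of VIM-AS1 and those of D0 19.7 and 15.7, while VIM was at 2724 and 4994 CPM on D7 against 10023 and 10737 on D0. The antisense gene of KRT7, matched by its identifier, was at no more than 0.0630 CPM in any pool. Another antisense gene over VIM (RP11-124N14.3) had 0.104 to 4.36 CPM.

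The 6 pools captured as 2 aliquots give the spread of repeated captures of the same pool. Between aliquots the absolute log2 ratio of CPM had a median of 0.12 for KRT19, 0.29 to 0.34 for KRT8, KRT7, VIM and KRT18 and 0.46 for KRT81, with a largest value of 1.22, for KRT81. Between the pools of a day the median was 0.38 for VIM, 0.29 for KRT18, 0.27 for KRT81, 0.21 for KRT8, 0.20 for KRT7 and 0.16 for KRT19. In 5 of the 6 genes the pools of D13 differed most, by 1.10 (KRT19) to 1.61 (KRT7).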
